A study of Mus musculus with 12 samples.

Results

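Transforming growth factor beta (TGF-β) and interleukin 10 are the main secreted signals that restrain immune cells, and their transcripts were described here in the leukocytes of MC38 tumors. The members were 9 genes of the 31053 in the deposited matrix, chosen by name. They were the ligands Tgfb1 and Il10, the integrin chain Itgb8, the receptor chains Tgfbr1, Tgfbr2, Il10ra and Il10rb, the inhibitor Smad7 and the secreted matrix protein Tgfbi. Each was measured as unique molecular identifiers (UMIs), which count a captured transcript once, and was followed across cell classes in each library. MC38 is a mouse colon carcinoma line grown here under the skin of C57BL/6 mice. The labels list 12 samples, 3 in each of 4 groups, with vehicle or the EZH2 inhibitor PF-06821497 for 7 or 16 days. By the paper, the inhibitor was given at 100 mg/kg, from day 10 for the 7 days and from day 1 for the 16 days. All 12 came from tumor-bearing mice taken on day 17, and all cells were enriched for CD45. The libraries are numbered 1 to 12 in the barcodes and no label ties a number to a sample or group. EZH2 inhibitor and vehicle were therefore not compared, libraries were not treated as replicates of a group, and no p-value is given.

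TGF-β is made as a latent complex that is held inactive outside the cell. The integrin that contains the Itgb8 chain releases the active ligand, which then binds a receptor made of Tgfbr1 and Tgfbr2 and signals through Smad proteins. Smad7 is induced by that signal and inhibits it, and Tgfbi is named for its induction by TGF-β. Interleukin 10 binds Il10ra, the chain that confers specificity, together with Il10rb, which other cytokine receptors share, and activates Stat3. In tumors, macrophages and regulatory T cells are known for making or activating both ligands. In the GRCm38 build, Tgfb1 lies at chr7:25687002-25705077 and Tgfbi at chr13:56609523-56639562, both on the plus strand. Tgfbr1 lies at chr4:47353222-47414931 on the plus strand, Tgfbr2 at chr9:116084293-116175360 on the minus strand, and Itgb8 at chr12:119158022-119238802 on the minus strand. Il10 lies at chr1:131019845-131024974 on the plus strand, Il10ra at chr9:45253837-45269149 on the minus strand and Il10rb at chr16:91406164-91425834 on the plus strand. The matrix gives the UMIs only as a count for each gene, so no exon or UTR can be assigned to them.

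The stated limits on cells left 128912 of 140639 barcodes, of which 72.3% passed exactly 1 of 20 gates on lineage UMIs. The median UMI count of the kept cells ranged from 2291 to 15081 between libraries, and a Ptprc (CD45) UMI was found in 61.7 to 92.1% of them. Libraries 1 to 6 held UMIs of the Y-linked genes Ddx3y, Eif2s3y, Kdm5d and Uty, at 128 to 209 CPM together (CPM is UMIs of a gene scaled to an equal total). Libraries 7 to 12 had none and held Xist at 658 to 870 CPM, against 0.0123 to 0.0592 CPM in libraries 1 to 6. The paper describes its mice as female, and the conflict with the Y-linked UMIs of libraries 1 to 6 was not resolved. Library 4 had 3 CD4 T cells and too few CD8 T cells for a value, and library 6, with the most cells, had the lowest depth. Barcode sequences that occur in more than 1 library made up 1.63% of all sequences. The gated cells were 83998 macrophages, split by Arg1 and Folr2 UMIs, 1875 Ly6c2-high monocytes, 1286 neutrophils, 3061 CD8 T cells and smaller lymphoid and dendritic classes. For each nonmacrophage class, all check markers were higher than in the other gated cells, and Apoe, Cd68, Ctsb and Lgmn were 3.56 to 9.61-fold higher in macrophages together than in the rest. The 633 CD4 T cells were gated on the absence of a Foxp3 UMI, but 59.6% of them held Ikzf2 and 57.8% Ctla4, which are typical of regulatory T cells, beside 37.1 and 34.7% of the CD8 T cells. They are therefore called CD4 T cells without a Foxp3 UMI, or CD4 T cells, and not conventional ones. Only 35 T cells had a Foxp3 UMI and no barcode passed the gate for keratin-positive tumor cells, so the comparisons planned for those classes could not be made.

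Levels are given as CPM of the UMIs summed over a class in 1 library, over libraries with at least 20 cells of the class. Among the ligands, Tgfb1 was found in every class. In NK cells it stood at 599 CPM in library 5 and 471 CPM in library 7, the only libraries with enough of these cells. Ly6c2-high monocytes followed with a median of 400 CPM (274 to 545 over 12 libraries), and CD4 T cells with 320 CPM (268 to 396 over 9 libraries). Monocytes were above CD4 T cells in 9 of 9 libraries although their ranges overlapped. The macrophage classes, B cells, CD8 T cells and neutrophils had medians between 215 and 253 CPM. These neighbours could not be ordered, since each range overlapped the next. Mature dendritic cells, the Ccr7-positive form that migrates to lymph nodes, were lowest at 73.0 CPM (27.7 to 111 over 12 libraries), and type 1 conventional dendritic cells were above them in 8 of 9 libraries. After every cell was thinned to 1000 UMIs, a Tgfb1 UMI was found in 34.3% of NK cells and in 7.59% of mature dendritic cells.

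Il10 was rare, with its highest median in CD4 T cells and the next in Folr2-positive macrophages. In CD4 T cells the level was 40.3 CPM at the median of 9 libraries, from 0 in library 11 to 94.6 in library 6. The UMIs came from few cells: 47 of the 633 cells in 9 libraries held 127 UMIs, and the 10 highest cells held 49.6% of these. Libraries 1, 2, 6 and 7 were high, at 60.8 CPM or more, and libraries 3, 5, 9 and 11 were at 22.6 CPM or less. The value of library 6 came from 6 UMIs in 1 of 35 cells, and in library 1 a cell held 10 of the 20 UMIs. Folr2-positive macrophages, a phenotype of resident macrophages in many tissues, had 25.2 CPM (8.04 to 43.5), above the other macrophages at 15.4 CPM (4.50 to 27.5) in 11 of 12 libraries. CD4 T cells and Folr2-positive macrophages overlapped, with the T cells higher in 7 of 9 libraries. Plasmacytoid dendritic cells had 37.2 and 0 CPM in their 2 libraries from 2 UMIs, and gamma delta T cells 24.6 CPM in library 6, the only one with enough of them, from 1 UMI. Ly6c2-high monocytes had 4.09 CPM (0 to 20.1) and CD8 T cells 1.04 CPM (0 to 7.84). Free RNA can put a transcript in any droplet, and the tumor cells planned as the class without Il10 were too few, so the classes with the least Il10 were taken after their values were seen. No UMI was found in 189 NK cells (median depth 3099 UMIs), which allows a share of up to 1.59% of cells with a UMI, a limit on detection at this depth and not on expression. In 590 type 1 conventional dendritic cells (median depth 4751 UMIs) 1 UMI was found, or 0.169% of cells, against 7.42% of the CD4 T cells at a median depth of 3509 UMIs. Shares and intervals in all classes cover counting error only.

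Within macrophages as a whole, 5.55% of cells held an Il10 UMI. Of these 4665 cells, 63.5% held only 1 UMI, while 384 cells with at least 5 UMIs held 32.5% of all Il10 UMIs in macrophages, and the highest cell held 40. The level between libraries ran from 6.37 CPM in library 4 to 26.8 CPM in library 10, a 4.20-fold range around a median of 13.4 CPM. Il10 was thus the most variable member in macrophages apart from Itgb8, which was close to 0 there. The range of the other 7 members in macrophages was 1.3-fold for Tgfb1, 1.42-fold for Il10rb, and between 1.91-fold and 2.67-fold for Tgfbi, Smad7, Tgfbr2, Tgfbr1 and Il10ra. Library 5 was the highest for Tgfb1, Tgfbr1, Tgfbr2 and Il10ra. Libraries 1 to 6 and 7 to 12 overlapped for each member.

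**Figure D1:**
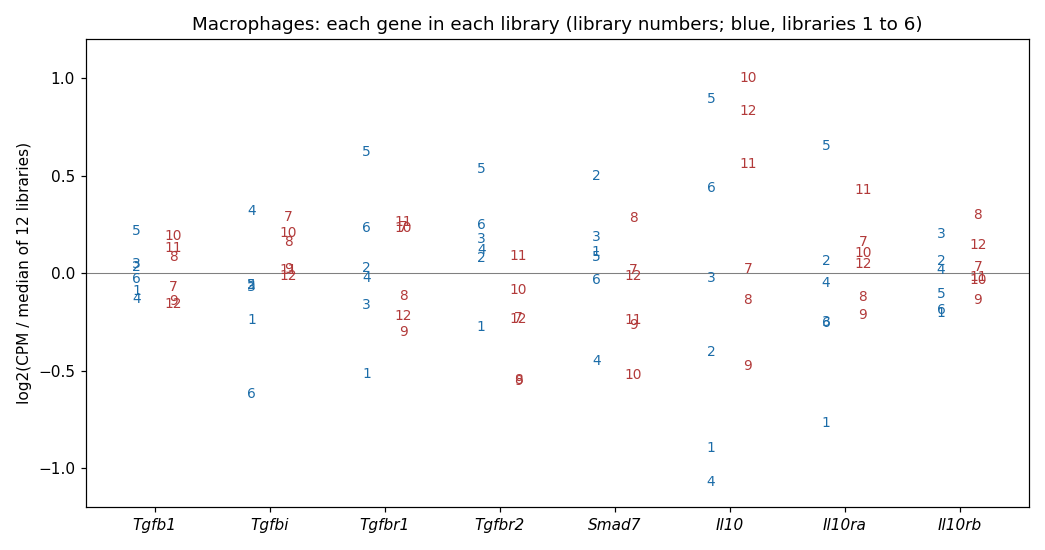
Level of 8 members in macrophages, as log2 of the CPM in a library over the median of 12 libraries (vertical axis), by gene (horizontal axis); each printed number is a library, with libraries 1 to 6 in blue and 7 to 12 in red. Il10 spreads from 6.37 CPM in library 4 to 26.8 CPM in library 10, while Tgfb1 stays between 207 and 269 CPM.

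Itgb8, the activator, was the member with the narrowest distribution. CD4 T cells had 32.4 CPM at the median of 9 libraries, from 14.0 in library 1 to 62.7 in library 5. Mature dendritic cells had 16.6 CPM at the median of 12 libraries, from 5.81 in library 11 to 47.9 in library 5. The ranges overlapped, with CD4 T cells higher in 8 of 9 libraries. CD8 T cells stood at 2.77 CPM (0 to 7.03 over 11 libraries), below mature dendritic cells in 11 of 11 libraries. No UMI was found in NK cells, B cells, plasmacytoid dendritic cells or Cd209a-positive dendritic cells, which allows shares of up to 1.59, 1.08, 2.1 and 1.64% of cells with a UMI at these depths. Neutrophils, taken as a class that should lack the gene, held 1 UMI in 1286 cells at a median depth of 1917 UMIs. Macrophages held 134 UMIs in 83998 cells, or 0.143% of cells. The corresponding shares were 9.79% of CD4 T cells and 6.15% of mature dendritic cells (median depth 3669 UMIs).

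Itgb8 and Il10 were not found in the same CD4 T cells more often than their shares gave. Of 62 cells with Itgb8 and 47 with Il10, 5 held both, and 4.83 were expected from the shares within each library. The cells with Itgb8 carried Ikzf2, which encodes Helios, in 88.7% and Il2ra, the high-affinity interleukin 2 receptor chain, in 69.4%. Those without Itgb8 did so in 56.4 and 28.9%, at a median depth of 3428 UMIs against 4622 UMIs. Lrrc32 encodes GARP, which holds latent TGF-β at the surface of regulatory T cells. It stood at 81.2 CPM in the cells with Itgb8 and at 16.5 CPM in those without. The cells with Il10 carried Maf, a transcription factor known to promote Il10, at 1022 CPM, against 430 CPM in those without. They also held Ikzf2 in 80.9% and Il2ra in 55.3%, against 57.8 and 31.1% of those without Il10. Higher shares of cells with these markers were thus not particular to the cells with Itgb8. By level, Il2ra was higher in the cells with Il10 (523 against 187 CPM), but Ikzf2 was not (569 against 576 CPM). In the cells with Itgb8, Ikzf2 stood at 1199 CPM, against 497 CPM in those without. Lrrc32 was at 37.3 CPM with Il10, from 8 UMIs, and at 22.6 CPM without. The 35 T cells with a Foxp3 UMI, too few for a class value, held 18 Itgb8 UMIs in 7 cells and 2 Il10 UMIs.

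**Figure D2:**
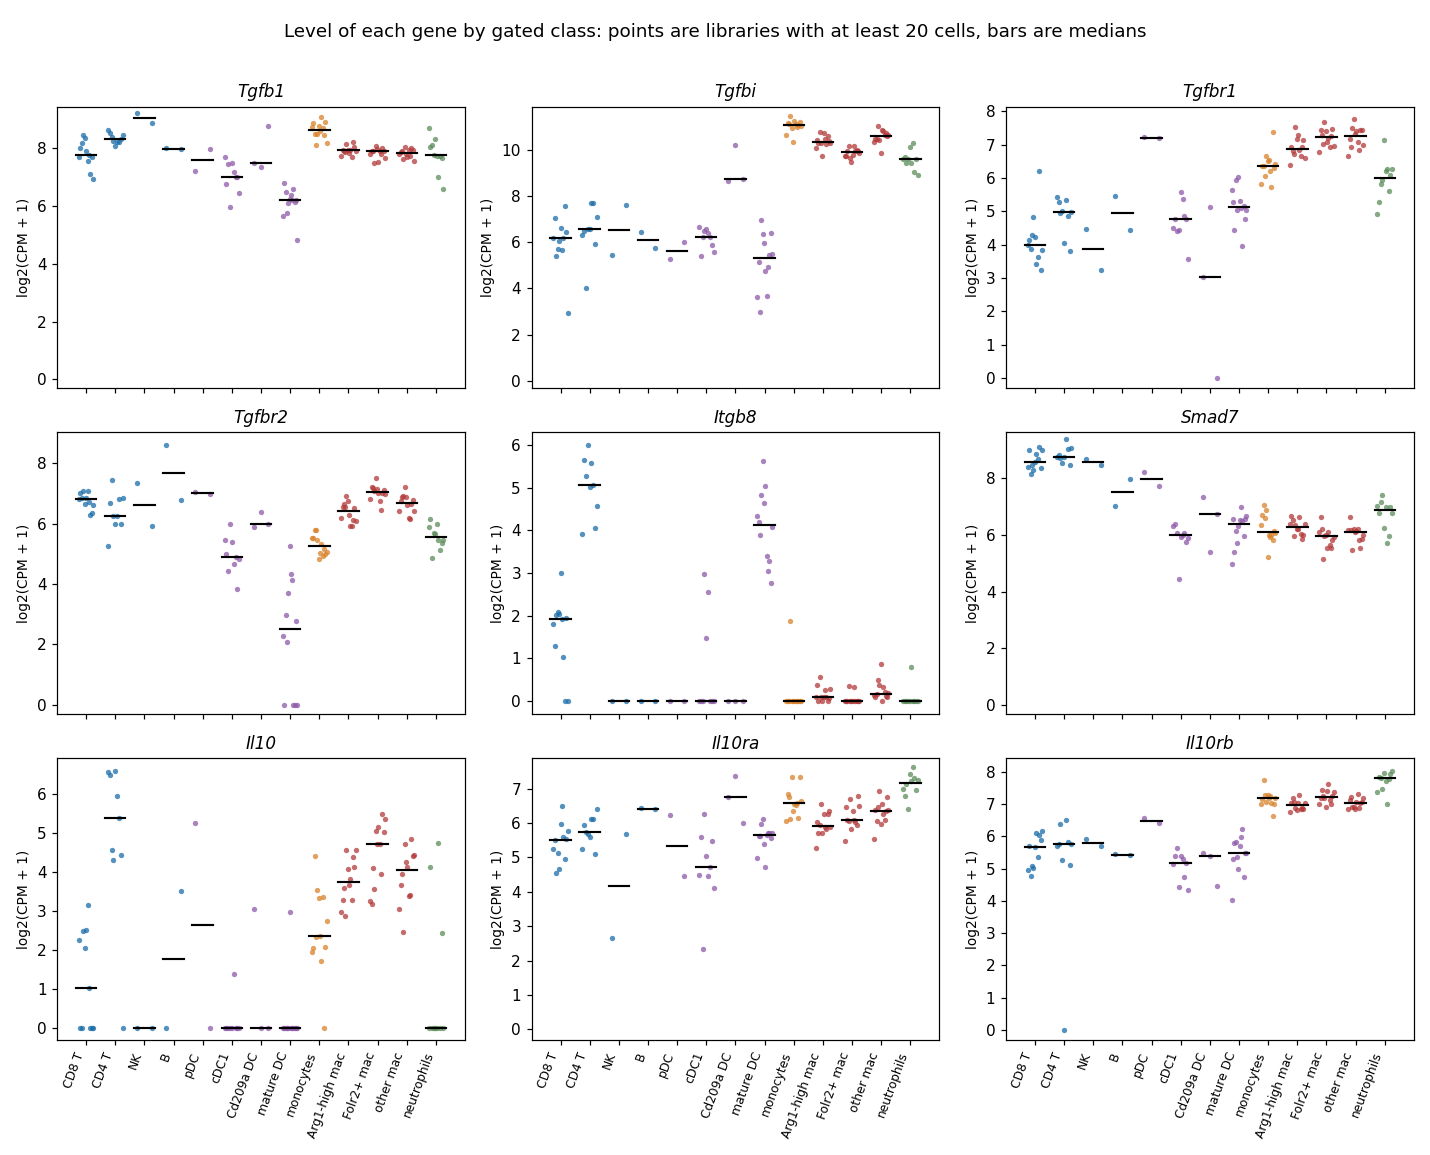
Level of each member by gated class, as log2(CPM + 1) on the vertical axis; each point is a library with at least 20 cells of the class and each bar is the median of those libraries. Itgb8 lies near 0 in most classes and has a median of 32.4 CPM in CD4 T cells, Il10 has a median of 40.3 CPM there and 0 in 5 classes, while Tgfb1 is at least 27.7 CPM in every class and library shown.

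The receptor chains were distributed differently from each other. Tgfbr1, the signaling chain, was highest in macrophages and plasmacytoid dendritic cells. Other macrophages, those with few Arg1 and no Folr2 UMIs, had 152 CPM (101 to 216), Folr2-positive macrophages 149 CPM (109 to 205) and Arg1-high macrophages 117 CPM (82.8 to 183). Plasmacytoid dendritic cells had 146 and 149 CPM in their 2 libraries, and these 4 classes overlapped. Monocytes had 81.3 CPM, neutrophils 63.3 CPM and CD8 T cells 14.9 CPM (8.51 to 73.5 over 11 libraries). Tgfbr2, the chain that binds the ligand, stood at similar levels in lymphoid cells and macrophages. CD8 T cells had 111 CPM (77.8 to 135), NK cells 58.9 and 160 CPM, B cells 385 CPM in library 5 from 9 UMIs and 109 CPM in library 10, and Folr2-positive macrophages 131 CPM (85.9 to 183). Type 1 conventional dendritic cells (28.4 CPM) and mature dendritic cells (4.81 CPM, 0 to 37.3) were lowest. After thinning, both chains were found in 1.53% of macrophages and in 0.105% of CD8 T cells (exact 95% confidence interval 0.0217 to 0.307%). These were 1280 and 3 cells, against 1215 and 4.67 expected from the shares of each chain within libraries.

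Both chains of the interleukin 10 receptor were highest in neutrophils. Il10ra stood at 144 CPM there (84.5 to 197 over 10 libraries), at 94.1 CPM in monocytes (66.4 to 160) and at 59.3 to 81.4 CPM in the 3 macrophage classes. Cd209a-positive dendritic cells had 108 CPM and B cells 84.4 CPM, each from few cells, and CD4 T cells, CD8 T cells and mature dendritic cells had medians of 45.0 to 52.7 CPM and overlapped. NK cells had 5.34 and 50.5 CPM, and type 1 conventional dendritic cells were lowest at 25.6 CPM. Il10rb stood at 221 CPM in neutrophils (128 to 259), at 123 to 148 CPM in monocytes and macrophages, at 88.3 CPM in plasmacytoid dendritic cells, and at 35.1 to 54.6 CPM in CD4 and CD8 T, NK and B cells and in the conventional and mature dendritic classes. Neutrophils were above Folr2-positive macrophages, the next class, in 9 of 10 libraries. After thinning, both chains were detected in 2.91% of neutrophils (1.93 to 4.20%), 1.69% of monocytes (1.15 to 2.39%) and 0.891% of macrophages (0.828 to 0.957%). These were 27, 31 and 747 cells, against 22.9, 25.02 and 730 expected from the shares of each chain within libraries. As neutrophils are shallow (median 1917 UMIs), 928 of 1286 entered this count.

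**Figure D3:**
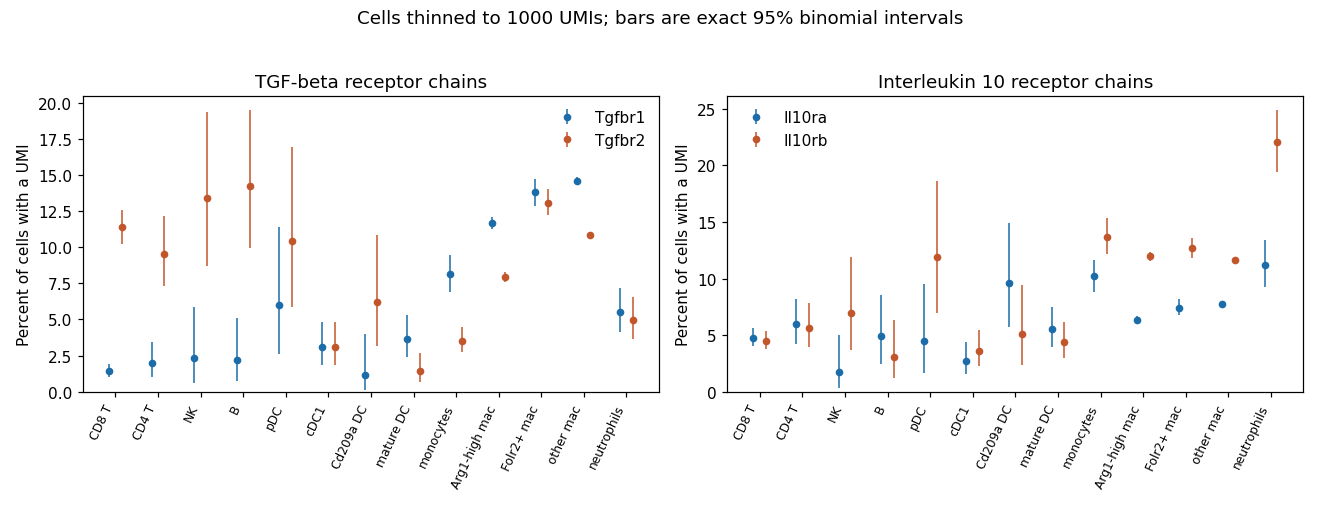
Percent of cells with a UMI of each receptor chain after thinning to 1000 UMIs (vertical axis), by class (horizontal axis), with exact 95% binomial intervals that cover counting error only. Tgfbr1 is in 13.7% of macrophages and 1.44% of CD8 T cells, Tgfbr2 in 10.2 and 11.4%, and Il10rb is highest in neutrophils at 22.1%.

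Smad7, the inhibitor that TGF-β induces, had its highest median levels in CD4 T, CD8 T and NK cells, although macrophages held most of its UMIs. CD4 T cells had 428 CPM (354 to 655 over 9 libraries), CD8 T cells 380 CPM (279 to 545 over 11 libraries) and NK cells 353 and 401 CPM. These 3 classes overlapped and none of them overlapped with macrophages, which had medians of 60.9 to 76.5 CPM and no value above 99.6 CPM. Plasmacytoid dendritic cells (208 and 298 CPM) and B cells (128 and 250 CPM) lay between them. Tgfbi had the opposite distribution. Ly6c2-high monocytes led with 2152 CPM (1275 to 2764), and were above other macrophages (1543 CPM, 920 to 2049) in 12 of 12 libraries. Arg1-high macrophages followed at 1298 CPM (851 to 1708), Folr2-positive macrophages at 950 CPM (696 to 1137) and neutrophils at 765 CPM (470 to 1241), each lower than the class before it in all or most shared libraries. Cd209a-positive dendritic cells had 404, 1183 and 418 CPM in libraries 2, 4 and 6. T, NK and B cells and the remaining dendritic classes had medians of 38.9 to 118 CPM.

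The low Tgfbi levels in lymphoid classes were set beside genes of macrophages. Against the complement genes C1qa, C1qb and C1qc, as planned, macrophages held 0.0923 Tgfbi UMIs per UMI (0.0727 to 0.148) and CD8 T cells 0.38 (0.0645 to 1.47). The ranges overlapped, but the gates cap the C1q UMIs of lymphoid cells, which raises their ratio. Lyz2, a lysozyme gene of macrophages, monocytes and neutrophils that no gate used, was therefore added after the data were seen. Macrophages held 0.172 Tgfbi UMIs per Lyz2 UMI at the median of 12 libraries (0.126 to 0.282). The ratio was 0.211 in CD8 T cells, 0.203 in CD4 T cells, 0.163 in type 1 conventional dendritic cells and 0.185 in mature dendritic cells, and each of these classes overlapped macrophages. Classes with high Tgfbi levels also had such ratios, 0.225 in monocytes and 0.242 in neutrophils, while Folr2-positive macrophages had 0.0823. Lyz2 was itself among the genes most like Tgfbi across the classes, with a Pearson correlation of 0.96. The part of free RNA and of doublets in these Tgfbi levels was not tested. In B cells, the class planned as lacking the gene, 9.35% of 278 cells held Tgfbi at a median depth of 1314 UMIs, and 10 of them held 86.1% of its UMIs. The 10 highest cells held 60.8% of them in CD4 T cells, 71.7% in NK cells and 25.9% in CD8 T cells.

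Macrophages held most of the UMIs of the members other than Itgb8. They made up 90.2% of the gated cells, from 73.7 to 94.5% between libraries. They held 93.1% of the Tgfb1 UMIs and 97.5% of the Il10 UMIs (median over libraries 98.3%, 91.3 to 99.5%), although CD4 T cells had more Il10 for their total UMIs. CD4 T cells held 1.33% of the Il10 UMIs with 0.68% of the cells. For Itgb8, macrophages held 36.9% of the UMIs, CD4 T cells 25.6% and mature dendritic cells 17.9%, the last with 0.769% of the cells. Between libraries these shares ran from 6.90 to 74.6%, 0 to 48.7% and 5.26 to 40%. The median over libraries was 32.8% for macrophages and 40.9% for the lymphoid classes together, so no order is read from these shares. For Smad7, lymphoid classes held 12.1% of the UMIs with 4.56% of the cells. Among receivers, macrophages held 98.1% of the Tgfbr1 UMIs and 94.4 to 95.9% of those of Tgfbr2, Il10ra and Il10rb. These shares depend on how many cells of each class were captured and on their depth. Macrophages had a median of 5989 UMIs, while the lymphoid, dendritic, monocyte and neutrophil classes had medians of at most 4751 UMIs. Macrophages therefore held more than 90.2% of all UMIs, and a share somewhat above 90.2% is no excess.

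**Figure D4:**
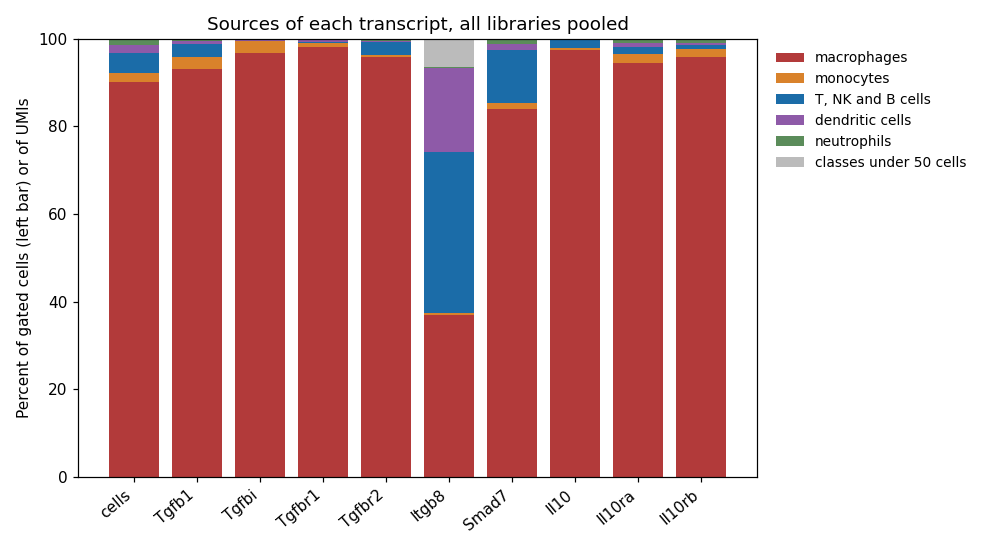
Percent of gated cells (left bar) and of the UMIs of each member (other bars) in each group of classes, all libraries pooled. Macrophages hold 90.2% of the cells and 84.0 to 98.1% of the UMIs of 8 members, and 36.9% of those of Itgb8.

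Classes were then compared within libraries, as the log2 ratio of their CPM. A gene was called where it had at least 100 UMIs on both sides together, the median ratio was at least 2-fold and every library gave the same direction. Macrophages were compared with all T cells in 11 libraries. Of the 9 members, 3 were called higher in macrophages and 1 lower, where 14.4% of 13493 genes were called higher and 8.85% lower. Tgfbi was higher with a median log2 ratio of 3.93 (3.08 to 6.38), Tgfbr1 with 2.83 (1.15 to 3.73) and Il10rb with 1.38 (0.80 to 2.23). Smad7 was lower, with a median of -2.53 (-3.47 to -1.89). Tgfb1 and Tgfbr2 were near equal, at -0.20 (-0.51 to 0.85) and -0.21 (-0.89 to 0.26), and each was higher in macrophages in 4 of 11 libraries. Il10ra was higher in 10 of 11 libraries with a median of 0.65. Itgb8 was lower in 9 of 11 libraries (-3.99, -5.47 to 0.16) and Il10 was higher in 7 of 11 (1.15, -1.52 to 5.12), so neither was called. Itgb8 was called lower with 0.5 UMIs added to each side (-5.92) and under median scaling (-4.02).

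Macrophages were compared with Ly6c2-high monocytes, the blood-derived cells that can become macrophages, in 12 libraries. Tgfbr2 was the 1 member called, higher in macrophages with a median log2 ratio of 1.28 (0.79 to 1.94), where 6.1% of 13486 genes were called higher and 1.68% lower. Tgfb1 was lower in macrophages in 12 of 12 libraries by a median of -0.86 (-1.15 to -0.37), and Tgfbi likewise by -0.55 (-0.78 to -0.41), both short of 2-fold. Tgfbr1 was higher in 11 of 12 libraries (0.78) and Il10 also in 11 of 12 (1.41, -0.55 to 3.12, from 45 monocyte UMIs). The median of all tested genes was shifted by 0.24 in this comparison, and Tgfb1 was called lower, at -1.07, when the ratios were scaled by that median. Without library 3, and in libraries 7 to 12 alone, Il10 was called higher, at 1.58 and 2.14. For Itgb8, monocytes held 2 UMIs and no ratio is given.

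**Figure D5:**
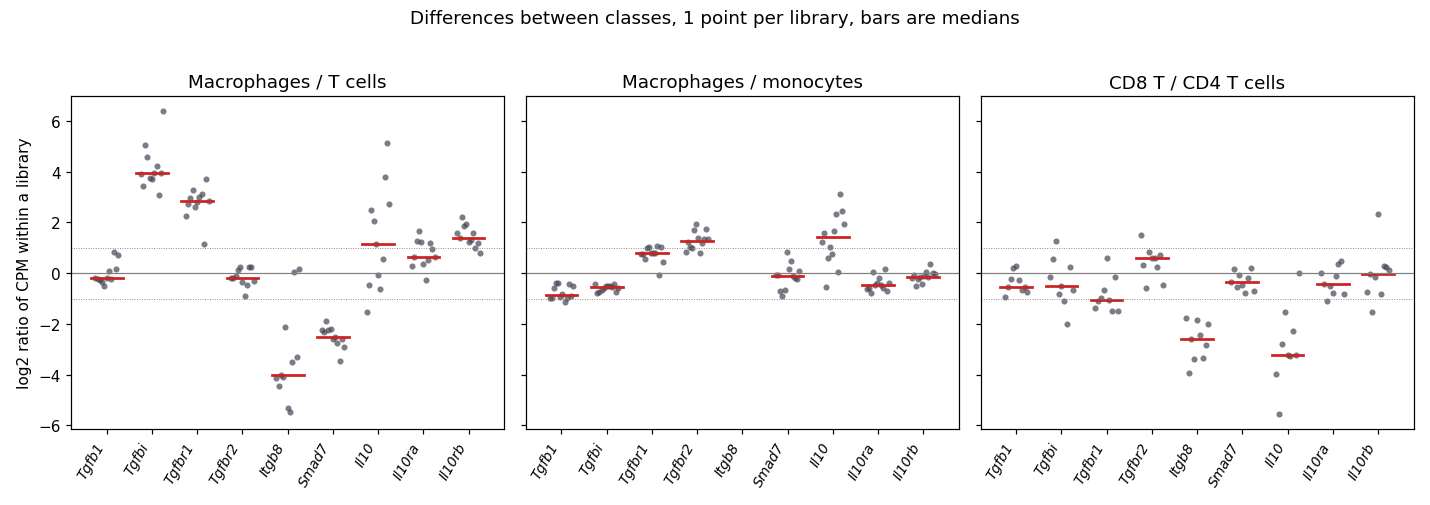
Within-library log2 ratios of CPM for the members (vertical axis), each point a library and each bar the median, for macrophages over T cells, macrophages over monocytes and CD8 over CD4 T cells. Dotted lines mark 2-fold, Itgb8 is left out of the middle panel, and in the left panel Tgfbi and Tgfbr1 lie above the upper line and Smad7 below the lower line in all 11 libraries.

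Within the T cells, CD8 T cells and CD4 T cells were compared in 9 libraries. Itgb8 was called lower in CD8 T cells, with a median log2 ratio of -2.61 (-3.94 to -1.76), where 0.883% of 8379 genes were called higher and 1.93% lower. Il10 was lower in 8 of 9 libraries (-3.22, -5.55 to 0), and in library 11 both classes were at 0. Without library 8, which held 175 of the 633 CD4 T cells, Itgb8 fell under 100 UMIs and no member was called. Without library 11, Il10 was called lower as well (-3.23), and without library 6 Tgfbr1 was (-1.08). In libraries 7 to 12 alone, Tgfbr1 was called lower (-1.27) and Itgb8 was not, at a ratio of -2.65. The Itgb8 call was also lost with doubled gate minimums, other-lineage limits at 0, thinning, no macrophage UMI in T cells, and a mitochondrial limit of 5%, where Il10 was called instead (-3.13). Tgfbr2 was higher in CD8 T cells in 7 of 9 libraries (0.60, -0.58 to 1.51) and Smad7 lower in 7 of 9 (-0.36, -0.78 to 0.20). NK cells were compared with CD8 T cells in 2 libraries, where Il10ra was called lower with ratios of -2.21 and -0.29 from 7 UMIs in NK cells. After thinning, Il10ra was no longer called and Tgfb1 was called higher (1.05), and without library 5 or 7 there was no value. There 1.4% of 4137 genes were called higher and 7.08% lower, and 6 members had enough UMIs. Tgfb1 was higher in NK cells in both libraries, by 0.77 and 0.96, short of 2-fold at the median.

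Neutrophils were compared with Ly6c2-high monocytes in 10 libraries. Of 7 members with enough UMIs, Tgfbi was called lower, with a median of -1.63 (-2.13 to -0.71), where 6.42% of 7427 genes were called higher and 14.9% lower. That share of the members is near the share of all genes. Tgfb1 was lower in 10 of 10 libraries (-0.78), Il10rb higher in 9 of 10 (0.55) and Il10ra higher in 8 of 10 (0.65), all short of 2-fold. Tgfb1 was called lower with doubled gate minimums (-1.29), thinning (-1.09), 50 cells (-1.03) and in libraries 7 to 12 alone (-1.3). The median of all tested genes was shifted by -0.38 in this comparison, and Il10ra was called higher, at 1.18, when the ratios were scaled by it. Mature dendritic cells were compared with Cd209a-positive dendritic cells in libraries 2, 4 and 6. Tgfb1 (-1.57), Tgfbi (-3.21) and Il10ra (-1.10) were called lower, 3 of the 4 members with enough UMIs, where 9.72% of 2108 genes were called lower and 17.4% higher. After thinning none of the 3 was called, and Il10ra was also lost without library 2, 4 or 6 and at a mitochondrial limit of 5%. Itgb8 had too few UMIs for a call, with 29 UMIs in mature dendritic cells and 0 in Cd209a-positive dendritic cells of these libraries.

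No member was called between the macrophage classes, where 1.16% of 13331 genes were called higher and 0.473% lower in Arg1-high against other macrophages, and 1.22 and 0.693% of 12847 genes in Folr2-positive against other macrophages. The differences were small and some had the same direction in every library. The share of all genes with the same direction in every library is not given, so this is not read as particular to the members. In Arg1-high macrophages, which express arginase, Il10ra was lower in 12 of 12 libraries (-0.34), as were Tgfbr1 (-0.25), Tgfbr2 (-0.26) and Tgfbi (-0.19), and Smad7 was higher in 12 of 12 (0.21). In Folr2-positive macrophages, Tgfbi was lower in 12 of 12 libraries (-0.72, -1.09 to -0.40) and Tgfbr2 higher in 12 of 12 (0.35). Il10 was higher in 11 of 12 (0.61, -0.54 to 1.43). Arg1-high macrophages are deeper (median 8955 UMIs) than other macrophages (4598 UMIs), and the part of depth in these differences was not tested.

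Other genes of the pathways came from 6 lists. Among 13 tested genes of TGF-β ligands, latency and activation, 6 were called higher and 1 lower in macrophages against T cells, with a median log2 ratio of 0.91 beside 0.02 over all genes tested, of which 14.4% were called higher and 8.85% lower. Those higher were Tgfb3, another ligand, Ltbp3, a latency protein, Nrros, which holds latent TGF-β on myeloid cells, Itgb5, Thbs1 and Furin, the protease that cleaves the precursor. Itgb3, an integrin chain, was lower. Itgb5 reached 248 CPM (150 to 326) in Folr2-positive macrophages. Thbs1 encodes thrombospondin 1, which can activate latent TGF-β, and stood at 2557 CPM (1780 to 4300) in neutrophils. Lrrc32 was led by CD4 T cells at 22.6 CPM (6.27 to 46.5), as was Itgb8. Of the 5 receptors and co-receptors, Eng, Acvrl1 and Acvr1 were called higher in macrophages against T cells, with a median of 1.74, beside 14.4% of all genes tested.

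Of 11 Smad pathway genes, Smad6 and Pmepa1 were called higher and Ldlrad4 lower in macrophages against T cells (median 0.23), which is near the shares of all genes, 14.4% higher and 8.85% lower. All 3 inhibit Smad signaling, and of these 3 Ldlrad4 alone had the direction of Smad7. Smad6 was low, at 3.61 CPM in other macrophages, its leading class. The other genes of this list were not called. Pmepa1, which TGF-β induces, had 598 CPM in Folr2-positive macrophages and was also called higher in macrophages than in monocytes, by a log2 ratio of 1.98. In that comparison 6.1% of 13486 genes were called higher and 1.68% lower. Other genes of the lists went both ways there: Tgfb3 was called higher (2.47), and Id1 (-1.46) and Thbs1 (-1.57) lower. Among genes that are often induced by TGF-β, Id1 and Id3 were called higher and Itgae lower. Itgae, the αE integrin of resident T cells, was led by type 1 conventional dendritic cells at 448 CPM (359 to 589), and Id1 by neutrophils at 192 CPM (87.7 to 431). Of the signal transducers of interleukin 10, Jak1 (-1.3) and Stat3 (-1.55) were lower in macrophages and Tyk2 was not called. None of 8 genes of the interleukin 10 response and Il10 regulation was called, at a median of 0.88.

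Across the 14 classes, each member was set beside 11595 genes by the Pearson correlation of pooled log2 levels, as a description, since classes share libraries and differ in depth. Smad7 was most like Gimap9 (0.98), Gimap8 (0.97) and Il27ra (0.97), and Tgfbi most like Clec4a3 (0.97), Clec4a1 (0.97) and Lyz2 (0.96). Tgfbr1 was nearest to Casp12, Tmem86a and Ctsb (0.93 to 0.94), and Itgb8 to Slamf1 (0.94), Tnfrsf4 (0.93) and Ikzf4 (0.90). Il10rb was nearest to Rnf149, Fndc3b and Fth1 (0.95 to 0.96), and Il10ra to Igfbp6, Pgm1 and Emilin2 (0.90 to 0.91). Tgfbr2 was nearest to Kansl2, Ewsr1 and Pot1a (0.90). The highest values for Tgfb1, with Mndal, Bin2 and Gvin1 (0.81 to 0.85), and for Il10, with Angptl2, Tmem55a and Ocel1 (0.82 to 0.85), were lower. Kansl2, Pot1a, Tmem55a and Ocel1 were highest in the 85 gamma delta T cells, at 20.6 to 28.8 CPM, where Il10 rested on 6 UMIs. The correlations with these genes therefore depend on few UMIs in a small class.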

How the data were processed

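Single-cell libraries of CD45+ cells were made by the authors with the 10x Genomics 3' v3 kit. The authors deposited 1 matrix of raw UMI counts for all libraries, which is not normalized. The matrix header names Cell Ranger 3.0.2 and the submitters' processing notes name Cell Ranger 2.1.1, Seurat and mm10. The annotation is not given in the sources used here, and gene positions are from GENCODE M21. The study's limits on cells were applied: a barcode needed over 200 genes, under 5000 genes and no more than 10% of UMIs from mitochondrial genes. Doublets were limited by leaving out barcodes that passed several gates (41 cells) and by limits on UMIs of other lineages. No doublet caller was run. The gates, the members and the pathway lists were chosen with earlier results of these data known. The named genes were the members, the 8 pathway genes with the largest ratio of the leading to the median class, the 3 genes most like each member, and pathway genes called in a comparison, the last chosen after their values were seen. Some of these genes are not reported here.

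UMIs were summed per class and library (numpy 2.4.6 and numba 0.67.0 in Python 3.11.15, with pandas 2.3.3, and scipy 1.17.1 for intervals). Before ratios, 0.5 UMIs were added to the shallower side and the same CPM to the deeper side. In simulated data for macrophages against monocytes (12014 genes eligible to be changed), 77% of genes changed at least 4-fold were called, and 0.0151% of unchanged genes. The simulation had 12 libraries with little noise between them, less than most members showed in macrophages. Its rates therefore do not carry over to the comparisons in 2 or 3 libraries or to more variable genes. The planned reading, 0.5 UMIs on each side, called unchanged genes of low counts in simulation and became an alternative. No rate of such calls is given for it. No design with batches could be fitted, as the labels give none. Libraries held 21649947 to 158760328 UMIs.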

Additional observations from a re-analysis of the deposited data

Results flagged for a closer look

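The 35 T cells with a Foxp3 UMI were too few for a class value and entered no level or ratio of their own. Their Itgb8 level, 82.5 CPM over all libraries pooled (95% Poisson interval 48.9 to 130 CPM, counting error only), was above that of the classes with no Itgb8 UMI, where 3 counts would allow at most 6.54 CPM. Those classes were taken because they held no Itgb8 UMI, so no conclusion is drawn from being above them. The level was flagged as a signal in cells outside the comparisons. The 18 UMIs lay in 7 cells, and the difference from CD4 T cells without a Foxp3 UMI (32.4 CPM pooled) was not tested.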

How the results depend on the processing

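Of 412 values that answer a comparison under another setting, 380 stayed within the spread between libraries or within 1.5 times the count. Some settings could not move a value, such as leaving out a library that the comparison did not use. This holds for most libraries in the comparison of NK cells, which rests on 2. A count was also taken as kept where another member was called. For Tgfbr2 in B cells, the spread was that of 2 libraries at 109 and 385 CPM. No ratio of a called member changed sign. Levels moved in 4 cases: Tgfb1 in NK cells to 677 CPM and Smad7 in CD4 T cells to 562 CPM as a mean over cells, Itgb8 in CD4 T cells to 50 CPM after thinning, and Smad7 in CD4 T cells to 526 CPM in libraries 7 to 12 alone. Left out in turn, the libraries moved the level of each member in its leading class to between 471 and 599 CPM (Tgfb1), 2129 and 2176 CPM (Tgfbi), 145 and 160 CPM (Tgfbr1), 109 and 385 CPM (Tgfbr2, B cells), 32.0 and 35.02 CPM (Itgb8), 427 and 436 CPM (Smad7), 31.4 and 50.5 CPM (Il10), 140 and 148 CPM (Il10ra) and 219 and 223 CPM (Il10rb). The leading class was kept in all 22 settings for Tgfbi, Itgb8, Il10ra and Il10rb, in 21 for Smad7 and Il10, and in 16, 13 and 14 for Tgfb1, Tgfbr1 and Tgfbr2. At 500 UMIs instead of 1000, 7 of 9 members kept their leading class.

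The 4 members called for macrophages against T cells became 5 with Itgb8 where 0.5 UMIs were added to each side and under median scaling. For macrophages against monocytes, 1 member became 2 with median scaling, at 1.5-fold and in libraries 7 to 12, and 1 to 2 when libraries were left out in turn (2 without library 3). For CD8 against CD4 T cells, 1 became 0 with doubled minimums, other-lineage limits at 0, thinning, and no macrophage UMI in T cells, 2 without the 5% of cells with the most UMIs, with 0.5 UMIs added to each side and without libraries 4 and 6, 3 with 50 cells, and 0 to 2 when libraries were left out in turn (0 without library 8, 2 without 6 or 11). For NK against CD8 T cells, 1 became 0 without limits on cells and with no macrophage UMI, 2 at 1.5-fold and 3 with no minimum of UMIs, and after thinning Tgfb1 was called in place of Il10ra. For neutrophils against monocytes, 1 became 2 with doubled minimums, thinning, 50 cells, median scaling, 1.5-fold and libraries 7 to 12. For the dendritic classes, 3 became 0 after thinning and 6 with no minimum of UMIs. For Folr2-positive macrophages, 0 became 1 at 1.5-fold. With libraries left out in turn it was 2 to 3 for the dendritic classes. Of all genes, thinning and 1.5-fold moved the number called from 1049 to 530 and 1772 (macrophages against monocytes), 236 to 114 and 413 (CD8 against CD4), 351 to 129 and 902 (NK), 571 to 158 and 903 (dendritic), 218 to 110 and 548 (Arg1-high) and 246 to 120 and 553 (Folr2-positive), and thinning from 1580 to 897 (neutrophils). With no minimum of UMIs it was 1868 (NK) and 2037 (dendritic), without library 4 it was 293 (dendritic), and in libraries 7 to 12 it was 382 (Folr2-positive). The added alternatives of no macrophage UMI and libraries 7 to 12 were chosen after seeing the data. Adding 0.5 UMIs on each side was the planned reading, and the main reading replaced it after simulated calls were seen. No paired analysis was possible because the libraries carry no replicate number from the labels, so the only pairing is that ratios were taken within a library.

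Depth limits the levels in small classes, where Il10 in CD4 T cells rests on 0 to 46 UMIs per library and Tgfbr1 in NK and B cells on 1 to 4. NK, B and plasmacytoid dendritic cells had 2 libraries each. Of the barcodes kept, 35719 passed no gate (median 2304 UMIs). Their UMIs are in no source share.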

Other observations

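In the same 35 T cells with a Foxp3 UMI, Tgfb1 stood at 371 CPM (95% Poisson interval 295 to 461 CPM), Smad7 at 559 CPM (464 to 667 CPM) and Lrrc32 at 68.7 CPM. The 32 gated fibroblasts held 37 Tgfbr2 UMIs (87.8 CPM, 61.8 to 121 CPM), 5 Itgb8 UMIs and none of Il10 or Il10ra. The 85 gamma delta T cells, of which only library 6 had 20 or more, held Smad7 at 499 CPM and Itgb8 at 20.6 CPM from 5 UMIs, pooled over libraries. In the 25 cells of library 6 they stood at 172 and 0 CPM.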
